A study of Mus musculus with 12 samples.

Results

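The replication-dependent histone genes of the mouse were followed in RNA sequencing of LSK cells, a sorted bone marrow population that lacks lineage markers, carries Sca1 and Kit and holds the blood stem and progenitor cells. Members were the rows of the count table whose symbols follow the older histone names (Hist1h to Hist4h) or the current ones (H1f, H2ac, H2bc, H3c and H4c followed by a number). The table mixes both styles, with 5 rows under older and 56 under current symbols, so both were used together: 61 of 25078 rows. Of these, 53 are replication-dependent genes of the histone clusters, 47 of them on chromosome 13 and 6 on chromosome 3 (mm10). They comprise 5 H1, 12 H2A, 14 H2B, 10 H3 and 12 H4 genes. All 53 belong to the Hist1 or Hist2 cluster. No row of the Hist3 or Hist4 clusters matched these symbols, so genes of those clusters under other symbols are not covered. The other 8 rows go against the name of the set: H1f6, H2ac1 and H2bc1 are testis genes, Hist1h2al is annotated as a pseudogene, and the linker histone genes H1f0, H1f10, H1f7 and H1f8 lie outside the clusters. Counts, medians and sums below cover the 53 cluster genes unless all 61 rows are named.

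The study measured 12 libraries in 4 groups of 3. Cells came from mice that carry the Cbfb-MYH11 fusion gene, which is known from inv(16) acute myeloid leukaemia, at a stage before leukaemia (CM), or from wild-type mice (WT). They either received 3.5 Gy of radiation (IR) or passed through the same incubation without it (NIR), and were harvested 24 h later, which gives the groups CM IR, CM NIR, WT IR and WT NIR. The labels tie 1 IR and 1 NIR library to each of 6 animals. Sample titles call the WT mice control, and their column names carry C for animals 1 and 3 and WT for animal 2. Those of the CM mice carry CHW. All 3 control animals were treated as 1 group. The sources used here do not give how the fusion was induced, the promoter or Cre behind it, or the age of the mice. In bulk RNA, fewer cells in S phase and less histone mRNA per cell cannot be told apart.

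Replication-dependent histone genes supply the core histones H2A, H2B, H3 and H4 and the linker histone H1 that package newly copied DNA, and their mRNAs accumulate in S phase. Most of these mRNAs carry no poly(A) tail. They end shortly after a conserved stem-loop that is bound by the protein SLBP and is cut downstream with the help of the U7 small nuclear ribonucleoprotein, although some histone genes also give polyadenylated transcripts, which can continue past the stem-loop. In blood progenitors they mark the cells that copy DNA, whereas replacement histones such as H1f0 are made outside S phase as well.

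The stem-loop is the feature by which these mRNAs are made and destroyed, so 1 example of each of its letter forms is shown here as the DNA strand of the transcript. Capitals mark the 16-base stem-loop and lower case the 7 bases on either side. Sequences are from GENCODE M21 transcripts on mm10, at chr13:22040959-22040988 (H4c9, minus strand), chr13:23581943-23581972 (H4c4, plus), chr13:23757359-23757388 (H4c2, plus), chr13:23739505-23739534 (H1f2, plus), chr13:23745040-23745069 (H3c3, minus) and chr3:96220411-96220440 (H2ac20, minus).
H4c9: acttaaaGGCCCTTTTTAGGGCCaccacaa
H4c4: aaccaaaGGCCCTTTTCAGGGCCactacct
H4c2: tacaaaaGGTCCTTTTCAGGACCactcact
H1f2: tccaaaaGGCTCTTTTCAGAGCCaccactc
H3c3: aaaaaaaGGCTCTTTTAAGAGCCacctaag
H2ac20: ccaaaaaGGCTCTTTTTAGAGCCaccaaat

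The pattern searched was GGNNCTTTTNAGNNCC on the transcript strand. It was present in 34 of the 53 members: 3 H1, 6 H2A, 9 H2B, 6 H3 and 10 H4 genes. Among all 55341 gene names in the GENCODE transcripts, 89 held it (0.161%), of which 34 are these members and 1 more is the testis gene H1f6. The 5′ arm of the stem separated the families. All 10 H4 genes with a match carried GGCCC (8 genes) or GGTCC (2 genes), and all 24 genes of the other 4 families carried GGCTC; the form GGCTCTTTTCAGAGCC of H1f2 was the commonest, in 18 genes. In the 19 members without a match, the absence says only that these letters are not in the annotated transcript.

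The gene models behind the deposited counts end close to this point. In 31 of the 34 members with a match, the deposited gene ended within 100 bases of the stem-loop, at a median of 5 bases after it. GENCODE M21 transcripts ran more than 100 bases past it in 16 of the 34. For H1f2 that is 840 bases and for H4c9 330 bases, against 4 and 6 bases in the deposited models, so the rest of those transcripts is not in the counted exons. The transcripts also share sequence: at the median member, 49.3% of all 50-base windows of the transcript occurred in the transcript of another gene. Whole transcripts were searched, so untranslated parts and overlaps between genes are included. The highest shares were 93.9% in H3c10 and 90.7% in H2ac12, and H1f1, H1f5 and H2bc21 had none. The sources used here do not say how reads that match several genes were assigned, so values of genes with high shares are uncertain. A further 15 members overlap a gene on the opposite strand and 2 overlap one on the same strand.

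Promoters held the letters known from S phase histone transcription. In the 250 bases before the RefSeq start (GRCm38.p6), both strands were searched in the 48 members with an entry and in all 32851 promoters of the table. The octamer ATTTGCAT, known as the site bound by OCT1 (Pou2f1) in H2B promoters, was present in 10 of 48 members, 5 of 12 H2A and 5 of 12 H2B genes, against 1.6% of all promoters. CCAAT was present in 40 of 48 members, including every H1, H2A, H2B and H3 entry but 3 of 11 H4 entries, against 33.85% of all promoters. TATAAA was present in 26 of 48, against 12.37%. Many H2A and H2B genes stand back to back and share the stretch between them, so these are not separate observations. As an example, the 120 bases before the start of H2bc12, the octamer-bearing gene with the highest level (chr13:22035701-22035820, plus strand), are shown with ATTTGCAT and CCAAT or its reverse complement in capitals.
H2bc12: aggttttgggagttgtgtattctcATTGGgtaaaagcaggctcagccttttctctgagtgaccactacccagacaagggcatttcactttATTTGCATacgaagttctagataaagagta

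Total gene counts ranged from 68490566 to 110795261 per library, and 56 or 57 of the 61 rows had a count in each library. For the LSK label, 12 stem and progenitor markers had a median level of 18.4 RPKM, led by Cd34. A 10-gene list of monocyte and macrophage markers stood higher, at a median of 81.7 RPKM. So did 10 mast cell and basophil markers, at 35.5 RPKM. Neutrophil, megakaryocyte and erythroid lists stood at 14.6, 1.21 and 0.788 RPKM, and B cell and T or NK cell lists at 0.046 and 0.123 RPKM. Purity of the sorted cells was not tested. In deviations from the group means over all genes, the CM NIR library of animal 3 correlated less with its own animal (0.125) than with another IR library (0.686), whereas the other 5 pairs correlated at 0.412 to 0.844.

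The cluster genes were measured at very low levels. Per exon length, their mean RPKM over 12 libraries had a median of 0.488 and 42 of the 53 (79.2%) were under 1 RPKM. Of all 25078 rows, 55.9% were under 1 RPKM (median 0.277). Of the 20725 rows with a count, 46.6% were (median 1.74 RPKM). In the same libraries and on the same scale, 34 S phase genes (DNA replication factors such as Rrm2, a subunit of ribonucleotide reductase) had a median of 41.9 RPKM and none was under 1. Variant histone genes, which give polyadenylated mRNA, stood at a median of 33.4 RPKM over 11 genes, histone chaperones at 37.0 over 21 and histone mRNA processing factors at 28.6 over 18. RNAs without a poly(A) tail other than histones were also low: the 5 with a row (Rmrp, Rpph1, Terc, Scarna2 and Rnu7) had a median of 0.649 RPKM, and Rnu7 was listed at 0. The labels describe removal of ribosomal RNA with a stranded kit and also call the library type mRNA. The part of library preparation in these levels was not tested.

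**Figure D1:**
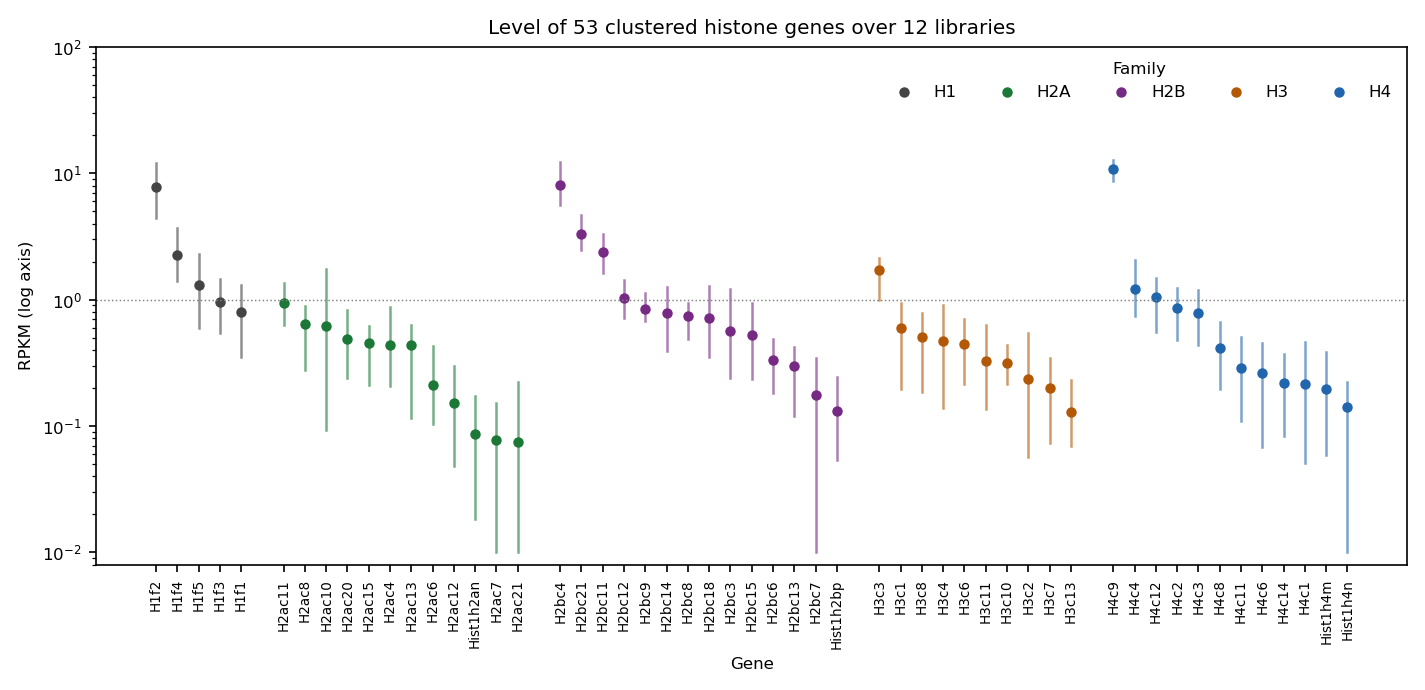
Mean RPKM of each of the 53 cluster genes over 12 libraries (points, logarithmic axis) with the lowest and highest library (lines), by family and in falling order. A range that includes a library at 0 is drawn down to 0.01, the dotted line marks 1 RPKM, and only 11 genes lie above it, led by H4c9 at 10.9 RPKM.

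A few genes carried most of the signal. H4c9 (chr13:22040960-22041362, minus strand; 403 exon bases), a core histone H4 gene, stood highest per length at 10.9 ± 1.36 RPKM (SD over 12 libraries). H2bc4 (chr13:23684199-23692480, plus strand) followed at 8.08 ± 2.29 RPKM and H1f2, a somatic linker histone gene (chr13:23738807-23739531, plus strand), at 7.83 ± 2.67 RPKM. Then came H2bc21 (chr3:96221072-96223738, plus strand) at 3.31 ± 0.674 RPKM, H2bc11 at 2.36 ± 0.58 RPKM and H1f4 at 2.25 ± 0.747 RPKM. H2bc4 and H1f2 did not differ beyond their spread, nor did H2bc11 and H1f4.

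By counts rather than per length, H2bc21, with 2667 exon bases, gave 21.2% of the counts of the 53 genes, and H2bc21, H2bc4, H1f2 and H4c9 together 60.4%. The H2B family held 47.7% of the counts, H1 23.9%, H4 16.2%, H3 6.6% and H2A 5.6%. Within H4, H4c9 alone gave 65.2%. H2bc4 and H2bc21 lacked the stem-loop letters in their GENCODE transcripts, while H4c9 and H1f2 had them.

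Levels overlapped between classes of transcript end. The 16 members whose GENCODE transcript runs more than 100 bases past the loop had a median of 0.69 RPKM (0.2 to 10.9), the 18 that end within 100 bases 0.465 RPKM (0.077 to 2.36), and the 19 without a match 0.45 RPKM (0.0747 to 8.08). Other leading members were H3c3 at 1.71 RPKM and H4c4 and H4c12 at 1.2 and 1.05 RPKM. The highest H2A genes, H2ac11, H2ac8 and H2ac10, stood at 0.932, 0.642 and 0.618 RPKM, and the H3 genes H3c1 and H3c8 at 0.593 and 0.503 RPKM.

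Most members rest on few reads. The median member averaged 21.8 counts per library, 48 of 53 averaged under 100 and 13 under 10. Of the 61 rows, 46 passed the count filter, 44 of them cluster genes, and the test ran over 14599 genes in all. In these 44, the variance between libraries of a group was a median of 2.82 times that of counting alone (0.54 to 50.62, highest in H1f2), and it exceeded 2 times in 32. For most members the spread between animals is therefore larger than counting error.

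Summed over the 53 genes, the share of all gene counts differed little between groups. Given as CPM without TMM scaling, it was 41.0, 34.0 and 42.3 in CM IR animals 1, 2 and 3, and 42.8, 36.7 and 46.3 in CM NIR. In WT IR it was 44.4, 44 and 42.6 CPM, and 39.4, 46.1 and 43.1 CPM in WT NIR. The group means were 39.1 ± 4.49 in CM IR, 41.9 ± 4.88 in CM NIR, 43.6 ± 0.967 in WT IR and 42.9 ± 3.39 in WT NIR (SD, n = 3 each). The groups overlap, except that all CM IR values lie below all WT IR values. That separation is absent with TMM-scaled library sizes, where the sums were 43.6, 33.1 and 42.8 CPM in CM IR and 43.5, 43.1 and 41.5 CPM in WT IR. The means without irradiation also changed order with that scaling, at 43.3 CPM in CM NIR and 41.9 CPM in WT NIR. Within animals, the sum was lower after irradiation in all 3 CM animals and in WT animals 2 and 3, and higher in WT animal 1. The sum is carried by H4c9, H2bc4, H1f2 and H2bc21, and the other 49 genes differed more. Without TMM scaling, those 49 summed to 12.3, 14.2 and 16.8 CPM in CM IR and 13.4, 14.7 and 13.9 in CM NIR. In WT IR they summed to 19.2, 19.0 and 18.2 CPM, and in WT NIR to 12.6, 21.8 and 21.7. All CM libraries were below all WT libraries except that of WT NIR animal 1.

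**Figure D2:**
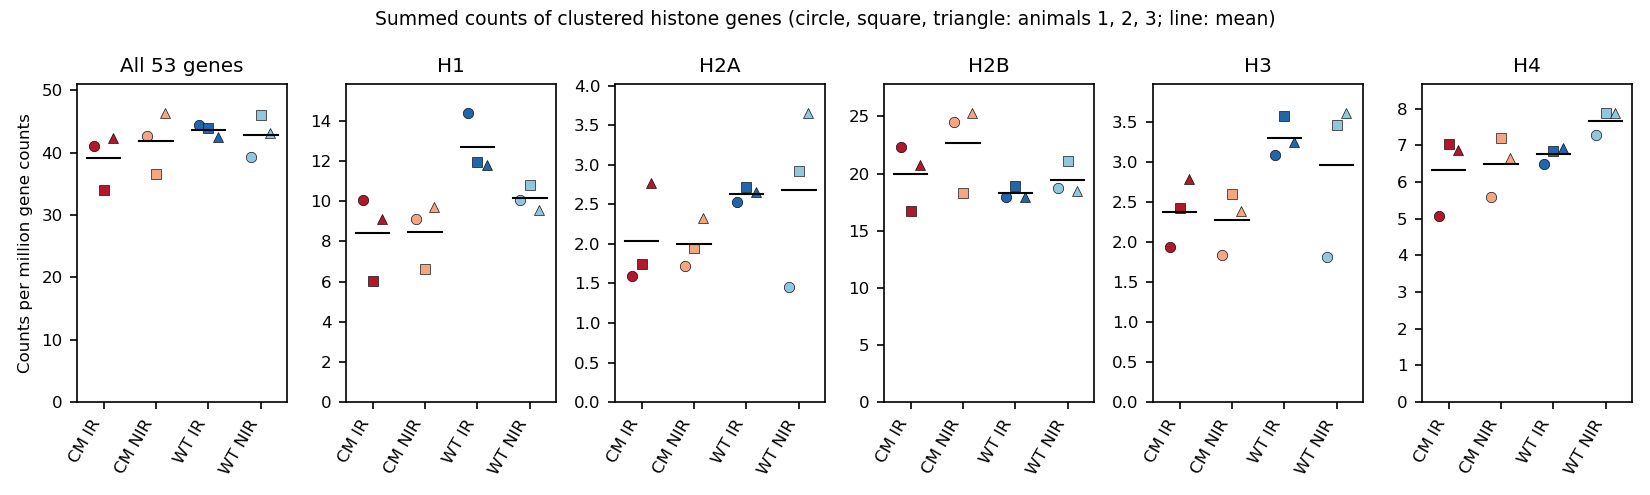
Summed counts of the 53 cluster genes and of each family, as CPM without TMM scaling, in the 4 groups (symbols: animals 1, 2 and 3; line: mean of 3). The totals range from 34.0 to 46.3 in all groups, while the H2A and H3 sums are lowest in the library of WT NIR animal 1 and H1 is highest in WT IR.

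The H1 family is carried by H1f2, which makes up 57.4% of its counts. The 5 H1 cluster genes summed to 10.1, 6.04 and 9.13 CPM in CM IR and to 9.13, 6.61 and 9.69 in CM NIR. They summed to 14.4, 11.96 and 11.8 in WT IR and to 10.1, 10.8 and 9.54 in WT NIR. All 3 WT IR values were above every other library. Without H1f2 that was not so: the other 4 genes summed to 2.48, 2.59 and 4.32 CPM in CM IR, 2.99, 3.08 and 2.69 in CM NIR, 5.27, 5.43 and 5.30 in WT IR and 3.21, 6.93 and 6.21 in WT NIR. WT IR was then between the WT NIR libraries. In these sums, made without TMM scaling, all CM values were below all WT values in each condition, closely so at WT NIR animal 1. Without irradiation that separation was not kept with TMM scaling, where CM NIR animal 1 and WT NIR animal 1 were about level. H1f1 and H1f4 were then higher in that CM library (0.506 and 1.25 CPM against 0.447 and 1.17). H1f3 and H1f5 were lower in it (0.692 and 0.732 CPM against 0.793 and 0.764).

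The H3 family summed to 1.93, 2.42 and 2.79 CPM in CM IR and to 1.84, 2.6 and 2.39 in CM NIR. It summed to 3.08, 3.57 and 3.25 in WT IR and to 1.81, 3.46 and 3.61 in WT NIR. All CM libraries were below all WT libraries except that of WT NIR animal 1. The H2B family stood at 22.4, 16.8 and 20.8 in CM IR, 24.5, 18.3 and 25.3 in CM NIR, 17.9, 18.9 and 17.96 in WT IR and 18.7, 21.1 and 18.4 in WT NIR. Within each condition, CM animals 1 and 3 were above all WT animals and CM animal 2 was below them, so the groups overlap.

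**Figure D3:**
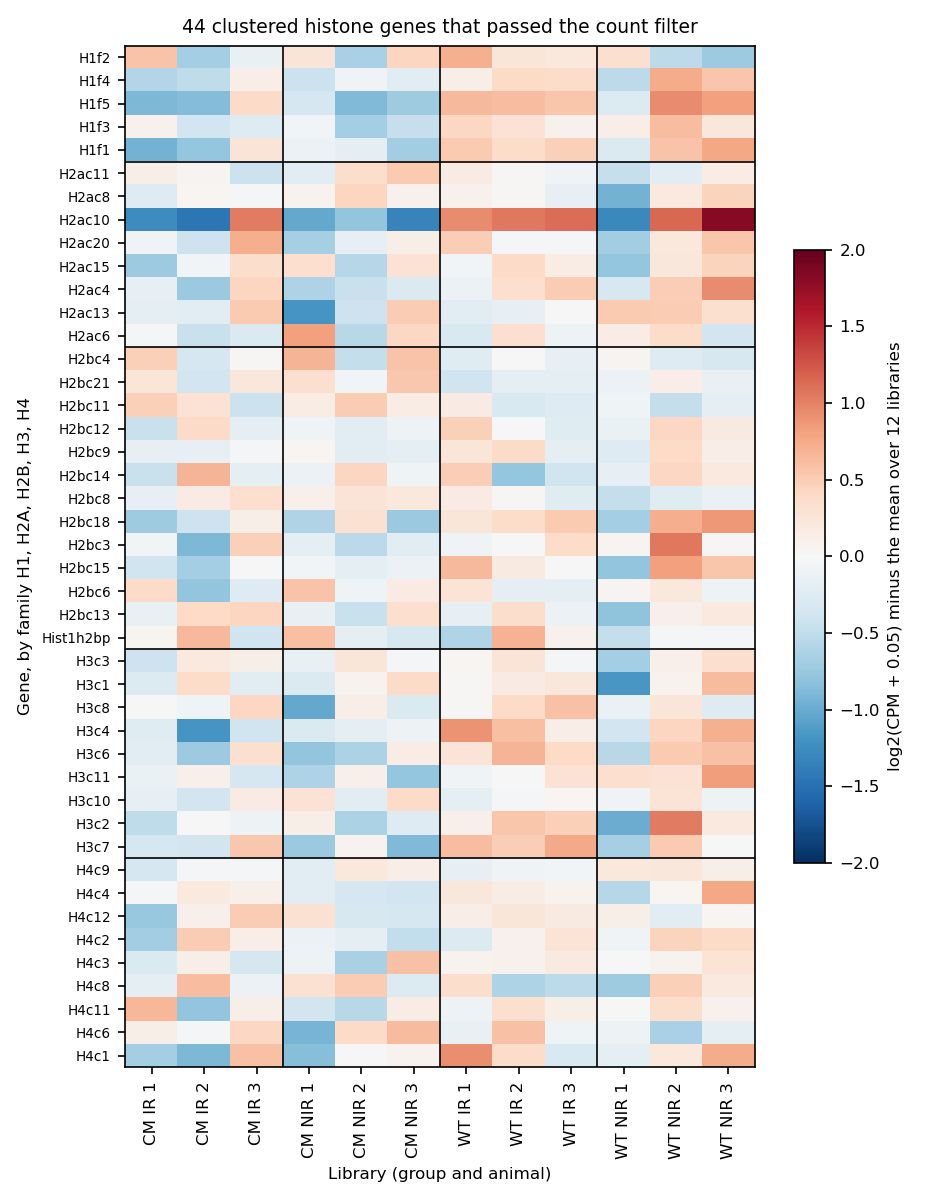
Difference of each library from the mean of 12 libraries, on the log2(CPM + 0.05) scale, for the 44 cluster genes that passed the count filter (rows by family, then by level; columns by group and animal). The library of WT NIR animal 1 is low for many genes, H2ac10 varies most, and H1f1, H1f3, H1f4 and H1f5 are mostly below their means in CM libraries.

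The IR over NIR contrast in WT asks how irradiation changed these genes 24 h later. The quasi-likelihood test of edgeR, at an adjusted p under 0.05, called no member in either direction, where 0.116% of all genes tested were called. None was under an unadjusted p of 0.05 either (4.05% of all genes). None passed with the animal as a block (1.12% of all genes), with a random animal effect in limma-voom (3%) or in DESeq2 (0.959%). The median log2 fold change of the 44 cluster genes was 0.0033, beside -0.0089 for all genes, with 22 fitted higher and 22 lower. H4c9 had the smallest p. It measured 3.92, 4.17 and 4.23 CPM (counts scaled to library size, here with TMM) in WT IR animals 1, 2 and 3, against 5.1, 5.2 and 4.78 CPM in WT NIR. The groups did not overlap, with WT IR below WT NIR (log2 fold change -0.29 ± 0.16 SE, unadjusted p = 0.0963 in edgeR, adjusted p = 1).

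H1f2 was higher in all 3 WT pairs without passing, where 19.9% of all genes were higher in all 3. It measured 8.9, 6.4 and 6.32 CPM in WT IR, against 6.78, 3.74 and 3.25 CPM in WT NIR (log2 fold change 0.65 ± 0.40, adjusted p = 1 in edgeR and 0.179 with the animal as a block). The groups overlap because WT NIR animal 1 was above WT IR animals 2 and 3, although it was below its own irradiated library. Members whose WT groups did not overlap were H4c12, higher, and H2ac13, H2bc21, H3c11 and H4c9, lower, 1 and 4 of the 46 tested, where 7.47% and 6.63% of all genes did so.

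The near-zero WT median hides animals that went opposite ways. The median of the 44 genes, IR minus NIR in log2 CPM, was 0.64 in WT animal 1, with 32 genes higher, against -0.06 in animal 2 and -0.21 in animal 3, with 32 lower. The NIR library of WT animal 1 was the lowest of the 12 for 13 of the 44 genes, and its own histone median lay 0.27 log2 units below the mean over libraries, while those of WT NIR animals 2 and 3 lay 0.33 and 0.24 above it. Without that library the WT median was -0.19, and without both libraries of the animal -0.21. Among WT libraries, the same library held the highest sum of the mast cell and basophil list, 781 CPM against 224 to 521 CPM. So it did for neutrophil genes (491 against 216 to 408) and megakaryocyte genes (306 against 145 to 229). Its sum of LSK markers was the lowest, 1029 CPM against 1209 to 1568 CPM, and its B cell and T or NK cell sums were not the highest. It also held the highest sum of the monocyte and macrophage list, 2039 CPM against 863 to 1520 CPM in the other 5, and the highest sum of the 12-gene erythroid list, 922 CPM against 601 to 832 CPM. That sum is led by Tfrc, the transferrin receptor gene, and in WT IR over NIR all 8 tested genes of the list were fitted lower (median -2.32), with the haemoglobin genes Hba-a1, Hba-a2, Hbb-b1 and Hbb-bs listed at 0 in every library. The part of these lists in the histone values was not tested.

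**Figure D4:**
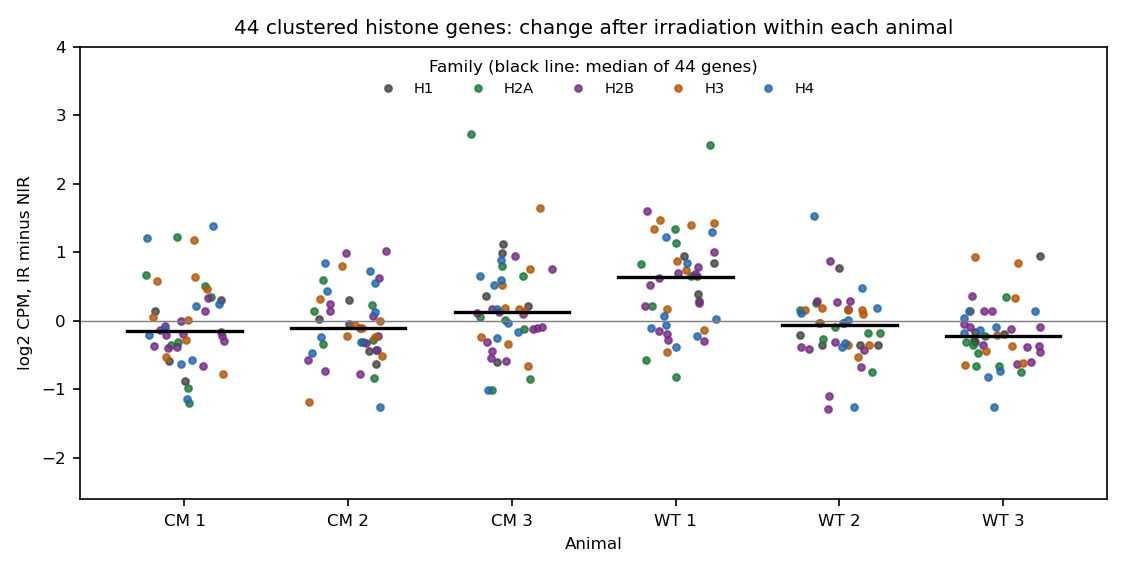
Change after irradiation within each animal, as log2 CPM of the IR library minus that of the NIR library, for the 44 tested cluster genes (points by family; black line: median). The medians lie between -0.21 and 0.13 in 5 animals and at 0.64 in WT animal 1.

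In CM cells, IR over NIR gave no passing member either (0.00685% of all genes in edgeR). None was at an unadjusted p under 0.05, where 1.62% of all genes were, and none passed with the block (0% of all genes), the random effect (0.0274%) or DESeq2 (0.123%). The median over the 44 genes was -0.0003, beside -0.0012 for all genes. The animals' own medians were -0.15, -0.11 and 0.13. H4c4, a core H4 gene, measured 0.468, 0.552 and 0.514 CPM in CM IR, against 0.399, 0.368 and 0.351 CPM in CM NIR. All 3 CM IR values were above all CM NIR values (log2 fold change 0.46 ± 0.33, adjusted p = 1 in edgeR). It and H2ac8, lower, were the 2 members without overlap, where 1.57% of all genes were higher and 0.986% lower in that way.

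The other 2 members with the smallest p in CM were H2ac6 and H3c8. H2ac6 measured 0.0961, 0.0587 and 0.0718 CPM in CM IR, against 0.213, 0.0508 and 0.148 CPM in CM NIR, a fitted log2 fold change of -0.85 ± 0.54 with overlapping groups. H3c8 measured 0.24, 0.223 and 0.335 CPM in CM IR, against 0.0931, 0.267 and 0.189 CPM in CM NIR, a fitted 0.53 ± 0.39 with overlap. Both had an adjusted p of 1 in edgeR.

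Over both genotypes, H4c9 and H2bc21 were lower after irradiation in every one of the 6 animals, 2 of 46 members (4.35%), where 6.58% of all genes were (none was higher in all 6, where 5.93% of all genes were). H2bc21 measured 10.4, 6.77 and 10.3 CPM in CM IR, against 11, 8.5 and 12.8 CPM in CM NIR, and 6.69, 7.75 and 7.73 CPM in WT IR, against 8.12, 9.62 and 7.95 CPM in WT NIR. H4c9 measured 3.51, 4.32 and 4.37 CPM in CM IR, against 3.82, 5.09 and 4.87 CPM in CM NIR. The averaged log2 fold change of H4c9 was -0.23 ± 0.11, with an adjusted p of 1 in edgeR, 0.173 with the animal as a block and 0.0554 with a random animal effect in limma-voom. No member passed in this averaged contrast in edgeR (0.308% of all genes did), with the block (2.07%), with the random effect (4.75%) or in DESeq2 (1.16%), and none was at an unadjusted p under 0.05 (5.19%). H1f0 and H3c7 were next by p, at -0.18 ± 0.09 and 0.66 ± 0.36, neither passing. H2bc13, H3c8, H4c12 and H4c4 were higher in 5 of the 6 animals, and as many members, H1f0, H2ac8, H2bc6 and H3c10, in only 1. The shares of all genes that did so were not counted.

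Whether the response differed between genotypes was tested as the IR response of CM minus that of WT. No gene of the 14599 passed in edgeR, with the block or the random effect or in DESeq2 (0% each), and no member was under an unadjusted p of 0.05 (0.726% of all genes were). The median over the 44 genes was -0.03, beside 0.01 for all genes. The smallest p among members belonged to H3c11 (0.90 ± 0.55), H2ac13 (1.07 ± 0.70) and H2ac11 (-0.57 ± 0.42), all with an adjusted p of 1.

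The pairs of H1f2 are given for its abundance. Its IR library minus its NIR library was 0.31, -0.04 and -0.59 log2 CPM in CM animals 1, 2 and 3, against 0.39, 0.77 and 0.95 in WT. All WT animals were above 0, as in 19.9% of all genes, and the CM animals fell on both sides of it. The difference of responses was -0.74 ± 0.56 and did not pass.

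The CM over WT contrasts ask how cells with the fusion gene differed without and with irradiation. Without irradiation, no member passed in edgeR (1.62% of all genes did), with the random animal effect (0.0342%) or in DESeq2 (6.32%), and the median of the 44 genes was -0.30, beside 0.02 for all genes. The fitted change was lower in 27 of 44 and 47.4% of all genes were lower. H1f3, H1f5, H2ac10, H2ac4 and H3c11 were lower at an unadjusted p under 0.05, 5 of 46 (10.9%), where 6.5% of all genes were, and none was higher, where 8.56% were.

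H1f5, a linker histone gene with no 50-base window shared with another gene, measured 0.732, 0.483 and 0.553 CPM in CM NIR, against 0.764, 1.86 and 1.69 CPM in WT NIR. The groups do not overlap, although WT NIR animal 1 was close to CM NIR animal 1 (log2 fold change -1.29 ± 0.43, adjusted p = 0.178 in edgeR, 0.461 with a random animal effect). H1f3 measured 0.692, 0.432 and 0.513 CPM in CM NIR, against 0.793, 1.14 and 0.858 CPM in WT NIR, again without overlap (-0.77 ± 0.26, adjusted p = 0.187 in edgeR). H3c11 measured 0.0798, 0.165 and 0.0675 CPM in CM NIR, against 0.202, 0.195 and 0.307 CPM in WT NIR (-1.16 ± 0.39, adjusted p = 0.19 in edgeR). The groups do not overlap, but H3c11 rests on 5 to 24 counts per library and 87.6% of its windows are shared.

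After irradiation, no member passed in CM over WT in edgeR (0.664% of all genes did), with the random animal effect (0.089%) or in DESeq2 (4.47%). The median was -0.17, beside 0.02 for all genes, and the fitted change was lower in 32 of 44, where 47.1% of all genes were lower. All 5 H1 and all 9 tested H3 genes were fitted lower, while 7 of 13 H2B genes were fitted higher. H1f1, H1f5 and H3c4 were lower at an unadjusted p under 0.05, 3 of 46 (6.52%), where 4.64% of all genes were, and none was higher (7.19%).

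H3c4, a core H3 gene, measured 0.18, 0.0704 and 0.156 CPM in CM IR, against 0.458, 0.361 and 0.246 CPM in WT IR, without overlap (-1.38 ± 0.43, adjusted p = 0.197 in edgeR). H1f5 measured 0.48, 0.493 and 1.23 CPM in CM IR, against 1.5, 1.45 and 1.39 CPM in WT IR, with CM animal 3 near the WT values (-0.98 ± 0.42, adjusted p = 0.393). H1f1 measured 0.264, 0.305 and 0.67 CPM in CM IR, against 0.822, 0.733 and 0.792 CPM in WT IR, with the same animal nearest WT (-0.92 ± 0.40, adjusted p = 0.401). Groups did not overlap in H1f1, H1f5, H2bc18, H3c2 and H3c4, all lower (10.9% of 46, where 8.36% of all genes did so), and in no member that was higher (9.23% of all genes). Without irradiation the count was also 5 lower (H1f3, H1f5, H2bc3, H3c11 and H4c2; 7.84% of all genes), with H2bc11 and H2bc8 higher (8.14%).

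**Figure D5:**
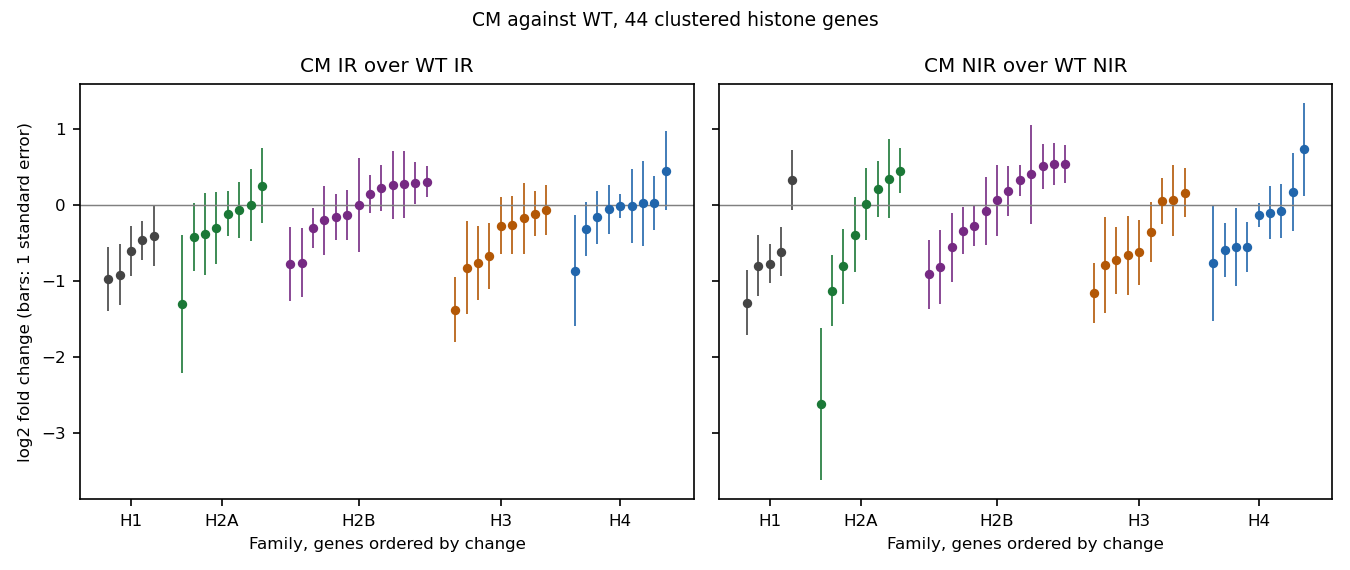
Fitted log2 fold change of CM over WT with 1 standard error for the 44 tested cluster genes, by family and in rising order, in irradiated (left) and non-irradiated cells (right). None passes an adjusted p of 0.05, and after irradiation all H1 and H3 genes lie below 0.

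The most abundant members were divided. H4c9 and H1f4 were fitted lower in CM NIR than in WT NIR (-0.13 ± 0.16 and -0.61 ± 0.33) and H2bc4, H2bc21 and H1f2 higher, none passing in edgeR. H2bc4 measured 9.83, 4.38 and 9.12 CPM in CM NIR, against 6.39, 5.1 and 4.91 CPM in WT NIR (log2 fold change 0.51 ± 0.30, adjusted p = 0.463), and H2bc21 was at 0.33 ± 0.20 (adjusted p = 0.486 in edgeR). In both genes CM NIR animals 1 and 3 were above all WT NIR libraries and CM animal 2 was not. Only 5 cluster genes averaged at least 100 counts (H4c9, H2bc4, H1f2, H2bc21 and H1f4), and fitted on genes of that depth alone the median was 0.31 in place of -0.30. The median without irradiation was also smaller without the library of WT NIR animal 3, at -0.09, and larger without WT animal 1, at -0.44. Without both libraries of CM animal 2, H2bc4 (0.80, adjusted p = 0.022) and H2bc21 (0.47, adjusted p = 0.044) passed as higher and H3c11 (-1.65, adjusted p = 0.0271) as lower, 3 members where 16.9% of all genes passed.

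Library numbers in the labels move with the genotype comparison. They fall into a lower and a higher series, with WT animal 1 and CM animals 1 and 2 in the lower and WT animals 2 and 3 and CM animal 3 in the higher. The labels do not say what a series stands for. Without irradiation, the median CM minus WT difference of the 44 genes was 0.17 log2 CPM in the lower series and -0.33 in the higher. After irradiation it was -0.29 and -0.07. With the series as a term in the fit, the medians were -0.23 and -0.12 and no member passed.

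Within the lower and the higher series, H1f5 without irradiation was at -0.35 and -1.64, H1f3 at -0.52 and -0.92 and H3c11 at -0.69 and -1.56. After irradiation H3c4 was at -1.80 and -0.85, H1f5 at -1.58 and -0.20 and H1f1 at -1.46 and -0.18. These gene and condition pairs were picked for their small p over all libraries. In the other condition, the lower series had the opposite sign for H1f1 and H3c4 without irradiation, at 0.14 and 0.17, and for H3c11 after it, at 0.06.

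Most marker lists of other cell types had larger median differences between genotypes than the histone genes, although few of their genes passed in edgeR. Without irradiation, the median log2 fold change of CM over WT was 2.40 for mast cell and basophil genes (8 of 10 fitted higher), 0.76 for megakaryocyte genes (6 of 9), 0.59 for monocyte and macrophage genes (8 of 10) and 0.39 for erythroid genes (5 of 8). It was -3.80 for neutrophil genes (7 of 9 fitted lower), -0.997 for T or NK cell genes (7 of 7) and -0.30 for B cell genes (5 of 7). Of all genes, 52.6% were fitted higher and 47.4% lower. The list genes that passed were 1 mast cell and basophil gene and 1 megakaryocyte gene, both higher, and in the neutrophil list 1 higher and 2 lower. Of all genes, 1.62% passed. After irradiation the medians were 2.176, 1.16, 0.77 and 1.78 for the same 4 lists that were higher. They were -1.70 for neutrophil genes, -0.61 for T or NK cell genes and 0.47 for B cell genes. No gene of these 7 lists passed, where 0.664% of all genes did.

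Summed levels ran unevenly over the CM animals. The mast cell and basophil list summed to 379 to 1990 CPM in CM IR and 287 to 2238 CPM in CM NIR, against 265 to 521 CPM in WT IR and 224 to 781 CPM in WT NIR, with CM animal 2 the lowest CM animal in both conditions. The monocyte and macrophage and the neutrophil sums were also lowest in CM animal 2, the animal without which H2bc4 and H2bc21 passed. The erythroid sum was 421 to 547 CPM in CM IR and 496 to 561 CPM in CM NIR, against 601 to 710 CPM in WT IR and 654 to 922 CPM in WT NIR, opposite to the median of that list, with 4 of its 12 rows at 0. The neutrophil sum did not follow its median either, at 238 to 857 CPM in CM IR and 181 to 1591 CPM in CM NIR, against 216 to 408 CPM in WT IR and 247 to 491 CPM in WT NIR. The part of these cell types in the histone values was not tested.

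H2ac10 (chr13:23533875-23534378, plus strand) varied most among the tested members on the log2(CPM + 0.05) scale of the heat map. It had 5, 4 and 41 counts in CM IR and 6, 8 and 4 in CM NIR, and 39, 47 and 59 in WT IR and 4, 49 and 69 in WT NIR. No library fell between 8 and 39 counts, and within both WT animal 1 and CM animal 3 the irradiated library was high and its partner low. Its CM over WT change without irradiation was -2.63 ± 1.0 (adjusted p = 0.244 in edgeR). Transcripts of other genes hold 79.7% of its windows, and Gm44297 overlaps it on the opposite strand.

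Genes that act on histone mRNA or on histones were taken from lists written for this work. Of 18 processing factors, 10 regulators of histone transcription, 21 chaperones, 11 variant histones and 34 S phase genes, 0 passed in edgeR or DESeq2 in any of the 6 contrasts. In the averaged contrast, 1 passed with the animal as a block (Ccne2, lower), where 2.07% of all genes did. With a random animal effect in limma-voom 4 passed (H2aj higher, and Ccne2, Hjurp and Cdc6 lower), where 4.75% of all genes did. Slbp, the stem-loop binding protein, had the smallest p of the processing list after irradiation in both genotypes, at -0.13 ± 0.10 in CM and -0.13 ± 0.10 in WT (adjusted p = 1 in edgeR). Casp8ap2, needed for histone mRNA processing, was at -0.24 ± 0.12 in CM over WT both with and without irradiation (adjusted p = 0.498 and 0.397 in edgeR), and Lsm10, a U7 particle protein, at 0.27 ± 0.14 and 0.23 ± 0.14.

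Among regulators of transcription, Ccne2, a cyclin that drives S phase entry with Cdk2, was at -0.24 ± 0.12 on average after irradiation (adjusted p = 1 in edgeR, 0.041 with the animal as a block, where 2.07% of all genes passed, and 0.0362 with the random effect, where 4.75% did). Ccne1 was at 0.39 ± 0.18 in CM over WT without irradiation (adjusted p = 0.338 in edgeR). Hjurp, the chaperone of the centromeric histone variant, was at -0.26 ± 0.10 on average after irradiation (adjusted p = 0.691 in edgeR and 0.0238 with the random effect) and H2aj, a replacement H2A gene, at 0.28 ± 0.09 (adjusted p = 0.542 in edgeR and 0.0323 with the random effect). The S phase genes had a median of -0.05 in WT IR over NIR and -0.02 in CM, with 27 and 21 of 34 fitted lower, where 52.6% and 50.4% of all genes were. Cdc6, a licensing factor, was at -0.13 ± 0.05 on average (adjusted p = 0.786 in edgeR and 0.0383 with the random effect).

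Rows other than the 53 replication-dependent genes are described apart. H1f0, a replacement linker histone gene made outside S phase, had 33.4 ± 4.55 RPKM (SD over 12 libraries), above every cluster gene, and alone had more counts than the 53 cluster genes together. It measured 63.9, 74.7 and 65.1 CPM in WT IR, against 76.7, 83.3 and 73.4 CPM in WT NIR, with overlap (-0.20 ± 0.13, adjusted p = 1 in edgeR), and was lower after irradiation in 5 of 6 animals. H1f10 stood at 3.96 RPKM, with log2 fold changes from -0.25 to 0.23 in the 4 contrasts between groups, each with a standard error of 0.52. The testis gene H1f6 had 1 to 5 counts per library and the oocyte gene H1f8 0 to 19, and H2ac1, H2bc1 and H1f7 were at 0 in all 12 libraries, which allows up to 0.0438 CPM in the shallowest library (3 counts, counting error only).

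Of the 5 rows under older symbols, Hist1h2bp passed the filter, with 3 to 15 counts per library, and was called in no contrast. Hist1h4m had 2 to 18 counts, Hist1h4n 0 to 8 and Hist1h2an 1 to 7, and the pseudogene Hist1h2al had 1 count in all. Together they had 17, 31 and 18 counts in CM IR and 27, 14 and 18 in CM NIR, against 20, 32 and 37 in WT IR and 17, 24 and 18 in WT NIR. These sums overlap between all groups.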

How the data were processed

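The deposited count table holds whole-number read counts per gene and the deposited RPKM table the same 12 libraries as RPKM, reads scaled by exon length and library size, both made by the authors. The submitters' processing notes name HTSeq 0.6.1p1, TopHat2, bcl2fastq 2.18.0.12 and mm10, while the sources used here give no settings, the strand setting included. Per the labels' protocols, total RNA went into a stranded kit with ribosomal RNA removal.

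Low genes were removed by filterByExpr at 10 counts (total of 15), and the rest were scaled by TMM and fitted over 12 libraries with 1 mean per group and no replicate block in edgeR 4.0.16 (R 4.3.3; quasi-likelihood test, Benjamini-Hochberg over all genes, threshold 0.05). Errors beside fold changes are standard errors of that fit. The common biological coefficient of variation was 0.29. The fit was tested on simulated counts. RPKM served for levels. Alternatives were limma 3.58.1, DESeq2 1.42.0, other scalings and filters, the animal as a block, the series of library numbers as a term, and leaving out libraries or animals.

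The labels give both libraries of a pair 1 animal number, so they are paired by animal. Deviations from the group means correlated within animals at 0.79, 0.844 and 0.125 in CM and 0.672, 0.504 and 0.412 in WT. In CM animal 3 the correlation with another library was higher (0.686), so that pair rests on the labels alone. Members and lists were chosen with earlier results of these data known. Named were the 3 highest members of a family by RPKM, the 3 smallest p per contrast, members with a known polyadenylated form (H1f2, H2bc4, H2bc21), members set apart by kind and up to 3 list genes per contrast; others, such as H2ac10 and H1f4, were chosen after their values were seen. Stem-loops come from GENCODE M21 transcripts and promoters from RefSeq.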

Additional observations from a re-analysis of the deposited data

How the results depend on the processing

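The count of 0 histone genes called held under every alternative of scaling, filter, tool, pseudocount and library number series, and with the replicate block by animal, in all 6 contrasts. The exceptions came from leaving out CM animal 2 in CM NIR over WT NIR: 1 call (H3c11, adjusted p = 0.0454 in edgeR) without its NIR library, in a fit that called 6.16% of all genes, and 3 without both its libraries, where 16.9% were called. Leaving out libraries or animals gave 0 to 3 calls in that contrast and 0 in the other 5.

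Median log2 fold changes with the replicate block (animal as a term) were 0.04 in WT IR over NIR and -0.04 in CM. Over the libraries and animals left out they ranged from -0.21 to 0.17 in WT IR over NIR, -0.11 to 0.13 in CM IR over NIR, -0.44 to -0.09 in CM over WT without irradiation, -0.25 to -0.16 in CM over WT after it, -0.18 to 0.19 in the difference of responses and -0.09 to 0.09 in the averaged contrast. Restricting the fit to genes with a mean of at least 100 counts, which leaves 5 cluster genes, moved the median to -0.16 in CM IR over NIR and to 0.31 in CM NIR over WT NIR. Without H2bc21 the summed share was 30.1 CPM in CM IR, 31.5 in CM NIR, 36.1 in WT IR and 34.1 in WT NIR, by construction lower. The libraries of CM IR (31.2, 27.0 and 32.2 CPM) were then all below those of WT IR (37.6, 36.1 and 34.6 CPM). Those of CM NIR and WT NIR overlapped. Among the 18 gene results recomputed under the alternatives (the 3 smallest p per contrast), none reversed. For other named genes this was not run. Low counts limit the precision of most members.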
